A study of Mus musculus with 8 samples.

Results

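The genes described here encode the proteins of the cytosolic ribosome. They were taken as the protein-coding genes of the count table whose symbol begins with Rpl, Rps or Rplp and a number, leaving out pseudogene names and the S6 kinases. This gave 83 of the 15917 genes, or 83 of 12274 protein-coding genes. By known function, 43 encode proteins of the large (60S) subunit, 30 encode proteins of the small (40S) subunit, 3 form the stalk (Rplp0, Rplp1, Rplp2), and 6 are paralogs of a subunit gene (Rpl3l, Rpl7l1, Rpl22l1, Rpl36al, Rps27l, Rps27rt). The remaining gene, Rps19bp1, encodes a nucleolar protein that binds Rps19 and is not itself a ribosomal protein, so the label held for 82 of the 83. The rule does not reach some other genes of ribosomal proteins, such as Rpsa and Fau, and these were examined as a separate list with the ribosome-bound scaffold Rack1. Another 4 genes with matching names are not annotated as protein-coding, and Rpl10l and Rpl39l have no row.

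A cytosolic ribosome holds a single copy of most of its proteins, and these proteins are made in matched amounts. Mammalian ribosomal protein mRNAs are among the most abundant in a cell, and most begin at a cytosine followed by a run of pyrimidines, the terminal oligopyrimidine or TOP motif. Through this motif the mTOR kinase and the RNA-binding protein Larp1 set the translation and stability of these mRNAs together with those of several elongation factors.

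The cells were blood eosinophils, granule-bearing leukocytes of type 2 immunity, cultured for 18 h and measured by stranded mRNA sequencing. Cells of a first experiment were treated with IFN-γ and TNF-α at 15 ng/mL (E1) or left without cytokine (CN). Those of another were treated with IL-33 at 30 ng/mL together with IL-4, GM-CSF and IL-5 at 10 ng/mL (E2), or with IL-5 at 10 ng/mL as the only cytokine (E0). All 4 groups held 2 libraries, and all came from C57BL/6 mice. Their genotype is given as WT in the labels, although the growth protocol describes IL-5 transgenic mice of line NJ.1638, and both statements stand unreconciled. Cells were enriched by depletion of CD90- and B220-bearing cells to a purity above 97% by stain. The labels are silent on the transgene's promoter and expressing cells, on age, and on pooling of animals, and do not state that a group's 2 libraries are separate animals or cultures. The p-values therefore measure the spread between these libraries.

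Library totals ran from 60809057 to 95065752 counts, and the common biological coefficient of variation was 0.147. In all 4 groups replicate 1 held Y-linked transcripts (Ddx3y at 62.5 to 95.6 CPM) and almost no Xist, and replicate 2 held Xist (796 to 1142 CPM) and no Ddx3y, so the spread within each group includes a difference of sex. The 9 eosinophil markers were all detected, and summed to 4025 and 3637 CPM in E1, 4172 and 4159 CPM in CN, 2551 and 2513 CPM in E2, and 4189 and 3803 CPM in E0. All levels are CPM, a gene's share of the library on a common scale, adjusted by the trimmed mean of M-values (TMM), and fold changes are log2 with their standard error (SE).

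The starts of 63 of the 83 genes were listed in RefSeq (GRCm38.p6), with 75 starts between them. A TOP start, read here as a C at the listed start with at least 4 C or T bases after it on the sense strand, was found at 14 of the 75 starts (18.7%), against 823 of 32851 starts of all genes (2.51%). A run of 8 pyrimidines was sought in a stretch around the start narrower than the 30 bases printed below. It stood at 28.0% of the genes' starts and 7.43% of all starts. The windows below run 5′ to 3′ from 15 bases before the listed start, with the pyrimidine run from the start in capitals. The first 4 belong to genes that were lower in E2 than in E0, Rps27 among those with the largest falls. The last 2, without a TOP start, belong to paralogs that were higher in E2.
Rps27, chr3:90213634-90213663, minus strand: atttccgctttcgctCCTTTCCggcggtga
Rps27rt, chr9:114982725-114982754, minus strand: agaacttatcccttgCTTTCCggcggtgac
Rps6, chr4:86857353-86857382, minus strand: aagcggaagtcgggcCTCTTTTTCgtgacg
Rpl38, chr11:114668565-114668594, plus strand: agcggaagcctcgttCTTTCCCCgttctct
Rps27l, chr9:66946071-66946100, plus strand: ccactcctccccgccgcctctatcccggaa
Rpl22l1, chr3:28805493-28805522, plus strand: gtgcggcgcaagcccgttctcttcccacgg
Rps27rt, a retrogene copy of Rps27 with 1 exon, is shown beside its parent. Rps27l has a second listed start further downstream, also without a TOP start. The listed start of Rpl22l1 is a G, and a run of at least 8 pyrimidines follows directly after it. The motif match is a description of letters at listed starts, which need not be the starts used in eosinophils. Among the 14 genes with a match, 12 were called lower in E2 than in E0 and 2 were not called, with a median log2 fold change of -0.43. Among the 49 genes with a listed start and no match, 34 were called lower and 5 higher, with a median of -0.45.

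The 83 genes together took 1.03% and 1.04% of the table's counts in the 2 E2 libraries, against 1.52% and 1.47% in the 2 E0 libraries. The table has no mitochondrially encoded gene. Their share was lower in both E2 libraries than in either E0 library. In the first experiment they took 2.38% and 2.29% of the counts in E1 and 2.09% and 2.30% in CN, and these groups overlapped. With 2 libraries a group an exact two-sided permutation test cannot go below p = 0.333, the value for E2 against E0, and it gave p = 0.667 for E1 against CN. In bulk RNA, fewer cells of a type and less RNA per cell cannot be told apart, and neither can a lower level of these mRNAs be told from a higher level of others.

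**Figure D1:**
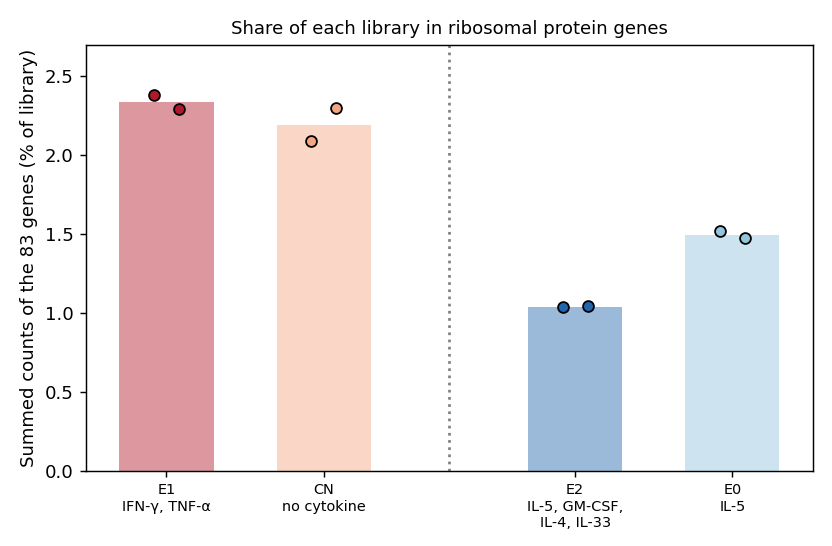
Summed counts of the 83 ribosomal protein genes as a percentage of all counts in each library (points) with the group mean (bars), for E1 and CN left of the dotted line and E2 and E0 right of it. The 2 E2 libraries sit at 1.03% and 1.04%, below both E0 libraries, while E1 and CN overlap.

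Most ribosomal protein mRNAs were at a lower level in eosinophils cultured with IL-33, IL-4 and GM-CSF in addition to IL-5 than with IL-5 by itself. Of the 83 genes, 62 fell, 6 rose and 15 were not called in E2 versus E0 (edgeR's quasi-likelihood test, Benjamini-Hochberg adjusted p below 0.05 over all genes tested). The median log2 fold change was -0.47, a 1.38-fold lower level, against a median of -0.02 over all genes tested. The 62 made up 74.7% of the genes, against 18.5% of all genes called lower, and the 6 made up 7.23%, against 17% of all genes called higher. Both E2 libraries stood below both E0 libraries for 68 of the 83 genes (37.2% of all genes tested), and above them for 8 (35.9% of all genes).

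Proteins of the small subunit gave some of the lowest values. Rps27 (chromosome 3, 90212522 to 90213651) had 94.4 and 91.3 CPM in E2, against 205 and 188 CPM in E0. Its retrogene Rps27rt (chromosome 9, 114982366 to 114982739) had 104 and 102 CPM in E2, against 236 and 202 CPM in E0. Both fell by 1.08 on the log2 scale (edgeR adjusted p = 5.9e-05 for Rps27 and 8.4e-05 for Rps27rt). Their annotated transcripts were identical over 341 of 341 aligned bases, so reads of these 2 genes cannot be told apart except at the ends. Summed, Rps27 and Rps27rt had 199 and 193 CPM in E2, against 441 and 390 CPM in E0, and both E2 libraries lay below both E0 libraries.

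Other small-subunit genes among the 15 largest falls were Rps27a (log2 fold change -0.88), Rps9 (-0.84), Rps23 (-0.83) and Rps16 (-0.78). Rps27a encodes a fusion of a ribosomal protein to ubiquitin and is one of the cell's sources of ubiquitin. It had 183 and 189 CPM in E2, against 360 and 326 CPM in E0, with no overlap. Rps23 sits in the decoding centre, where codon and anticodon are matched, and had 68.7 and 64.8 CPM in E2, against 132 and 105 CPM in E0. Rps9, which binds early in assembly of the small subunit, had 333 and 353 CPM in E2 and 623 and 603 CPM in E0. Of the 30 genes of the 40S subunit, 25 fell, 1 rose and 4 were not called, with a median of -0.54.

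Among proteins of the large subunit, Rpl37a (chromosome 1, 72711290 to 72713813) had 84.2 and 81.8 CPM in E2, against 162 and 142 CPM in E0, with no overlap (log2 fold change -0.87 ± 0.09, edgeR adjusted p = 0.000225). Rpl17 (-0.83), Rpl30 (-0.82), Rpl27a (-0.77) and Rpl37 (-0.73) were also among the 15 largest falls. Rpl5 and Rpl11, which with the 5S RNA bind and inhibit the p53 ligase Mdm2 when ribosome assembly is disturbed, both fell. Rpl5 had 87.9 and 88.0 CPM in E2, against 149 and 137 CPM in E0 (-0.70 ± 0.07). Rpl11 had 80.1 and 77.8 CPM in E2, against 110 and 98.9 CPM in E0 (-0.40 ± 0.09). Neither gene's groups overlapped, and Rpl11 lost its call without E0 replicate 1 (edgeR adjusted p = 0.0672) or E2 replicate 2 (0.0664). Of the 43 genes of the 60S subunit, 33 fell, 1 rose and 9 were not called, with a median of -0.43.

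The 3 stalk genes, whose proteins recruit the elongation factors to the ribosome, all fell. Rplp0 had 344 and 342 CPM in E2, against 542 and 485 CPM in E0 (-0.58 ± 0.09, edgeR adjusted p = 0.00199). Rplp1 (-0.35, adjusted p = 0.0275) and Rplp2 (-0.28, adjusted p = 0.0294) were closer to the threshold of the same test. Both lost their calls without E0 replicate 1 (edgeR adjusted p = 0.182 and 0.152) and without either E2 replicate (0.0864 to 0.143), and Rplp2 also without E0 replicate 2 (0.077).

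Of 9 genes examined for known roles outside bulk translation, Rpl5 and Rpl11 among them, 8 fell and 1 was not called. Rps6, the substrate of the S6 kinases downstream of mTOR, had 75.6 and 69.5 CPM in E2, against 109 and 93.1 CPM in E0 (-0.48 ± 0.10, edgeR adjusted p = 0.00798, 0.0632 without E0 replicate 1 and 0.0695 without E2 replicate 2). Rpl13a, which in human monocytes leaves the ribosome after IFN-γ to silence inflammatory mRNAs as part of the GAIT complex, had 308 and 326 CPM in E2, against 501 and 468 CPM in E0 (-0.61 ± 0.09). Rps14 (-0.69), Rps25 (-0.44) and Rpl38 (-0.43) also fell, Rpl38 being known in mice for the translation of Hox mRNAs. Rpl10a (-0.24, edgeR adjusted p = 0.0441) lost its call in 5 of the 8 fits with 1 library left out and with DESeq2 (0.054) and limma-voom (0.0662). Rps19, mutated in Diamond-Blackfan anaemia in humans, was not called, with 97.3 and 97.7 CPM in E2 and 100.5 and 98.6 CPM in E0 (-0.03 ± 0.07).

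A small group went the other way. Rps2 (chromosome 17, 24718116 to 24721929) had 103 and 110 CPM in E2, against 76.1 and 82.4 CPM in E0 (0.43 ± 0.08, edgeR adjusted p = 0.00334). Rpl3 (chromosome 15, 80077791 to 80091868), which reaches the peptidyl transferase centre, had 110 and 103 CPM in E2, against 82.2 and 85.9 CPM in E0 (0.34 ± 0.07, edgeR adjusted p = 0.00761). These 2 were the only genes of the 40S and 60S classes called higher in this comparison. The other 4 were paralogs or the binding protein. Rps27l had 38.9 and 45.03 CPM in E2, against 26.8 and 29.8 CPM in E0 (0.57 ± 0.12). Rpl22l1 had 12.7 and 11.6 CPM in E2, against 9.96 and 8.80 CPM in E0 (0.37 ± 0.11). Rpl7l1 rose by 0.34 and Rps19bp1 by 0.60. The edgeR adjusted p of the 6 genes ran from 0.00334 to 0.0331, and 1 of the 6, Rps2, was called without E0 replicate 1 and 2, Rps2 and Rpl3, without E2 replicate 2.

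**Figure D2:**
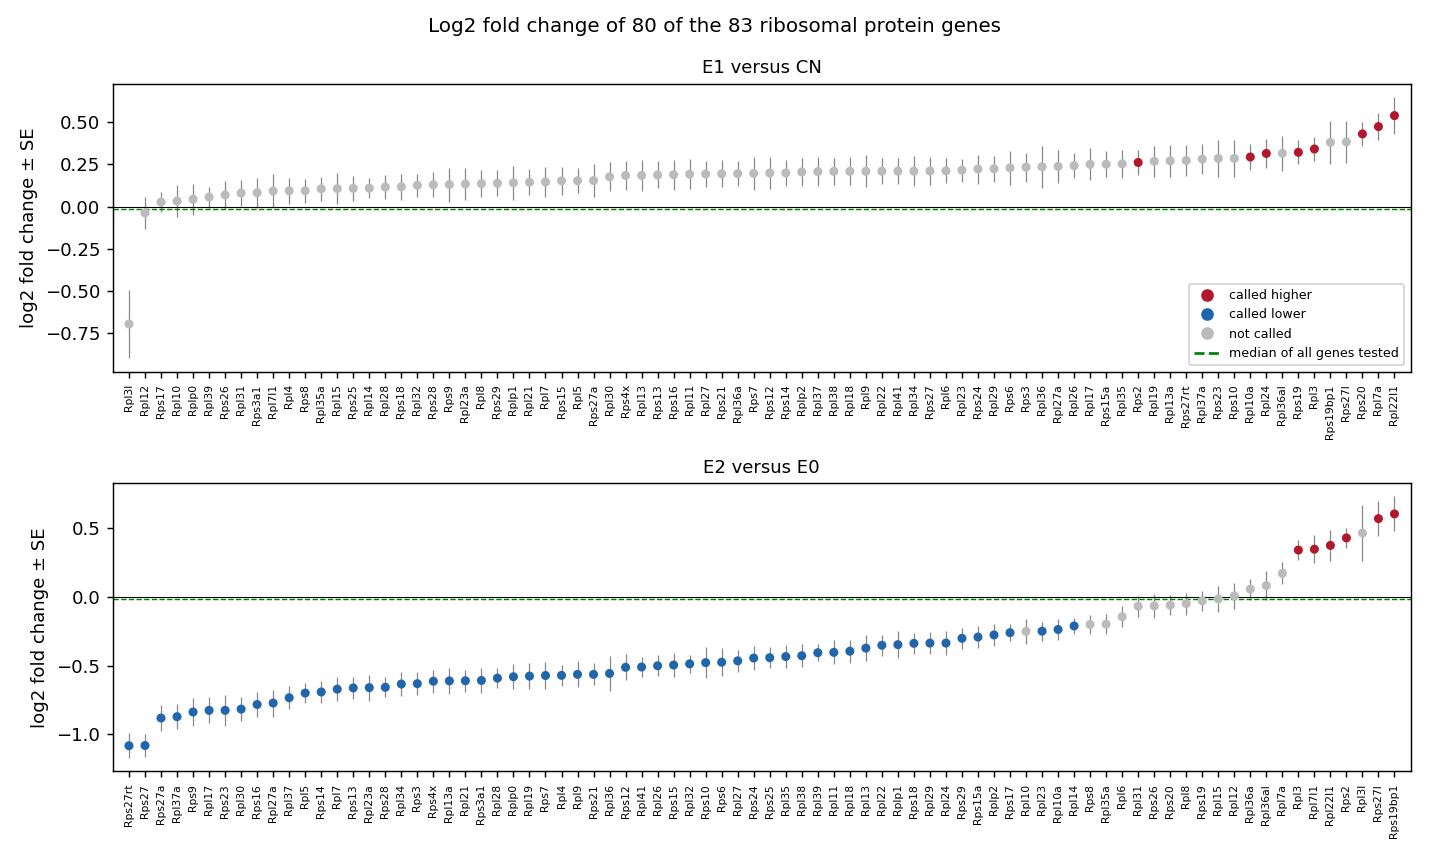
Log2 fold change of 80 of the 83 genes with its SE (bars), ordered within each panel, for E1 versus CN above and E2 versus E0 below. In E2 versus E0 the plotted values run from -1.08 (Rps27rt) to 0.60 (Rps19bp1), with 59 called lower in blue and 6 called higher in red, and in E1 versus CN 78 of the 80 points lie above 0 and 8 were called.

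In 3 paralog pairs 1 gene fell and the other rose in E2 versus E0. Rps27 fell by 1.08 while Rps27l, which is 76.4% identical to it over the 254 aligned transcript bases and is a p53 target in human cells, rose. Rpl22 had 88.5 and 96.1 CPM in E2, against 116 and 120 CPM in E0 (-0.35 ± 0.08, edgeR adjusted p = 0.00913, 0.0574 without E0 replicate 2 and 0.0707 without E2 replicate 1), while Rpl22l1, 74.6% identical over 299 aligned bases, rose. Rpl7 fell by 0.67 while Rpl7l1 rose. Of the 8 fits with 1 library left out, Rpl22l1 lost its call in 4, Rpl7l1 in 3 and Rps27l in 2. Rpl3 rose, and its paralog Rpl3l, known as a striated-muscle gene, stood at 2.31 and 2.21 CPM in E2 and 1.497 and 1.78 CPM in E0, the lowest level of the 83 genes, and was not called (0.46 ± 0.20, edgeR adjusted p = 0.116). Rpl36a (0.05) and Rpl36al (0.08), 87.7% identical over 332 aligned bases, were not called, and their E2 and E0 libraries overlapped. Reads from the stretches that Rpl36a and Rpl36al have in common cannot be told apart. Rpl10, whose paralog Rpl10l has no row, was not called (-0.25 ± 0.09, edgeR adjusted p = 0.0675).

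**Figure D3:**
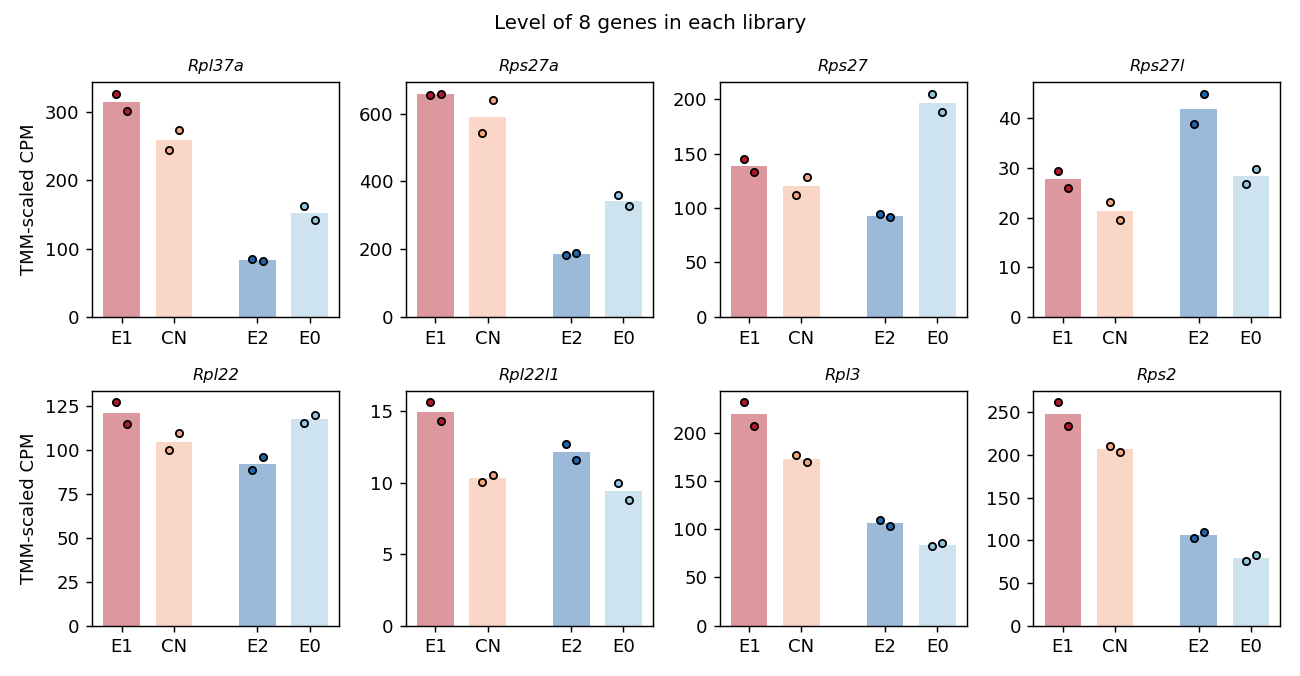
TMM-scaled CPM of 8 genes in each library (points) with the group mean (bars), E1 left of CN and E2 left of E0 in each panel. Rpl37a, Rps27a, Rps27 and Rpl22 are lower in E2 than in E0, and Rps27l, Rpl22l1, Rpl3 and Rps2 are higher, with no overlap between the 2 E2 and the 2 E0 libraries in any of the 8 panels.

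The genes classed here as 60S and as 40S did not keep the same proportion. These sums leave out the stalk genes, which belong to the large subunit, and the paralogs, Rps27rt among them. Summed 60S counts were 1.10 and 1.08 times the summed 40S counts in E2, against 1.01 and 1.00 times in E0. The ratio was higher in both E2 libraries than in either E0 library, at the smallest p that the exact permutation test allows with 2 against 2 (p = 0.333, two-sided). In the first experiment it was 1.19 and 1.20 in E1 and 1.18 and 1.17 in CN. The ratio depends on which reads could be assigned, so its level is not compared between the experiments.

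Across the 83 genes, the log2 fold change of E2 versus E0 was lower for genes with more reads. Its Spearman correlation with the mean log2 CPM in the E1 and CN libraries, which do not enter that fold change, was -0.61 over 83 genes and -0.51 over the 76 genes that are neither paralogs nor Rps19bp1. With the length of the annotated transcript it was 0.05. The points share the same libraries and are given as a description. The 29 genes that hold a snoRNA gene within their bounds had a median of -0.57 in E2 versus E0 (21 lower, 2 higher), and the 54 without one had a median of -0.44 (41 lower, 4 higher).

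IFN-γ and TNF-α gave a different picture, with small differences in the opposite direction. Of the 83 genes, 9 rose, 0 fell and 74 were not called in E1 versus CN (edgeR's quasi-likelihood test, Benjamini-Hochberg adjusted p below 0.05). The 9 made up 10.8% of the genes, close to the 9.19% of all genes called higher, and 8.08% of all genes were called lower. With the replicate number, which went with sex in all 4 groups, as a block in the same test, 44 genes were higher and 1, Rpl3l, was lower. The 44 made up 53% of the genes, against 17.5% of all genes called higher in that fit, and 17.2% of all genes were called lower. The median log2 fold change was 0.20, against -0.01 over all genes tested, and 81 of the 83 values lay above 0 (72 with library totals alone as the scaling, where the median of all genes was -0.11), against 47.8% of all genes. Both E1 libraries stood above both CN libraries for 70 of the 83 genes (26.5% of all genes) and below them for 1, Rpl3l (27.5% of all genes). The count of genes called lower was also 0 with DESeq2 and limma-voom.

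The 9 genes came from both subunits. Rpl7a (chromosome 2, 26910764 to 26913318) had 413 and 366 CPM in E1, against 280 and 281 CPM in CN (0.47 ± 0.08, edgeR adjusted p = 0.0039). Rps20 (chromosome 4, 3831334 to 3835665) had 180 and 161 CPM in E1, against 123 and 130 CPM in CN (0.43 ± 0.07, edgeR adjusted p = 0.004). Neither gene's groups overlapped, and both were called in all the fits with 1 library left out. The paralog Rpl22l1 had 15.6 and 14.3 CPM in E1, against 10.1 and 10.6 CPM in CN (0.54 ± 0.11, edgeR adjusted p = 0.012). Rpl3 had 231 and 206 CPM in E1, against 177 and 169 CPM in CN (0.34 ± 0.07). Rps19 (0.32), Rpl24 (0.31), Rpl10a (0.29) and Rps2 (0.26) rose with edgeR adjusted p between 0.0155 and 0.0479. Rpl24 overlaps a predicted gene on the same strand. Of the 8 named here, 6 lost the call in at least 1 fit without 1 library, and the count was 2 without E1 replicate 1, 3 without CN replicate 1, and 5 without E0 replicate 2, E2 replicate 1 or E2 replicate 2. It was 44 with the replicate block, 20 with DESeq2, and 4 with the 4 libraries of the comparison alone. It was also 4 with library totals alone as the scaling, where Rpl3l was called lower. Among these settings, the share of all genes is given here for the replicate block only.

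The stalk genes and the genes of extra-ribosomal function were not called in E1 versus CN, apart from Rps19 and Rpl10a. Rplp0 had 744 and 771 CPM in E1 and 688 and 782 CPM in CN, and these overlapped. Rpl13a, whose role in the GAIT complex follows IFN-γ in human cells, had 741 and 679 CPM in E1 and 547 and 630 CPM in CN, with no overlap (0.27 ± 0.09, edgeR adjusted p = 0.0948). Rpl13a overlaps another annotated gene on the same strand. Rps6 (0.23), Rpl5 (0.15), Rpl11 (0.19), Rps14 (0.20), Rpl38 (0.21) and Rps25 (0.11) were not called. In some alternative fits Rpl13a, Rps6, Rps14, Rpl38 and Rplp2 were called higher, while Rplp0, Rplp1, Rpl5, Rpl11 and Rps25 were called in none. Rps27l had 29.5 and 25.98 CPM in E1 and 23.1 and 19.5 CPM in CN, without overlap (0.38 ± 0.13, edgeR adjusted p = 0.0761). It too was called higher in some alternative fits. Rpl3l had 1.55 and 1.69 CPM in E1, against 2.30 and 2.96 CPM in CN (-0.69 ± 0.20, edgeR adjusted p = 0.0514).

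The 2 comparisons share no library, so their calls can be set side by side. Rpl3, Rps2 and Rpl22l1 were called higher in both E1 versus CN and E2 versus E0. In E1 versus CN all 3 lost the call in some fits with 1 library left out, Rps2 in most of them. Rpl3 and Rpl22l1 also did so in E2 versus E0. In E1 versus CN, Rps2 was not called with limma-voom (adjusted p = 0.0571) or, in edgeR, with library totals alone (0.188). With the libraries of that comparison alone, edgeR called neither Rps2 (0.112) nor Rpl3 (0.0511). Rpl24 and Rpl10a were called higher in E1 versus CN and lower in E2 versus E0. Of the 8 fits with 1 library left out, Rpl24 lost the call in 7 and Rpl10a in 6 for E1 versus CN, and in 3 and 5 for E2 versus E0. Rpl7a, Rps20 and Rps19 were called higher in E1 versus CN and not called in E2 versus E0, and 59 genes were called lower in E2 versus E0 alone. Across the 83 genes the log2 fold changes of the 2 comparisons had a Spearman correlation of 0.02.

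The difference between the responses was tested in the same model, as E2 minus E0 less E1 minus CN. Of the 83 genes, 65 were lower, 1 higher and 17 not called in this test. The 65 made up 78.3% of the genes, against 14% of all genes called lower, and the 1 made up 1.2%, against 11.3% of all genes called higher. With the replicate block 70 genes were lower (84.3%, against 22.7% of all genes) and 2, Rpl3l and Rpl7l1, were higher (2.41%, against 20.2% of all genes). The median difference was -0.65 on the log2 scale. Rps27rt (-1.36 ± 0.13, edgeR adjusted p = 0.000179), Rps27 (-1.29), Rpl37a (-1.15) and Rps23 (-1.11) were among the genes with a large difference. The gene called higher without the block was Rpl3l (1.16 ± 0.29, edgeR adjusted p = 0.0206), which stood at 1.497 to 2.96 CPM over the 8 libraries and lost the call in 5 of the 8 fits without 1 library. Cytokines and experiment differ together between the 2 comparisons, and their parts in this difference cannot be told apart.

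**Figure D4:**
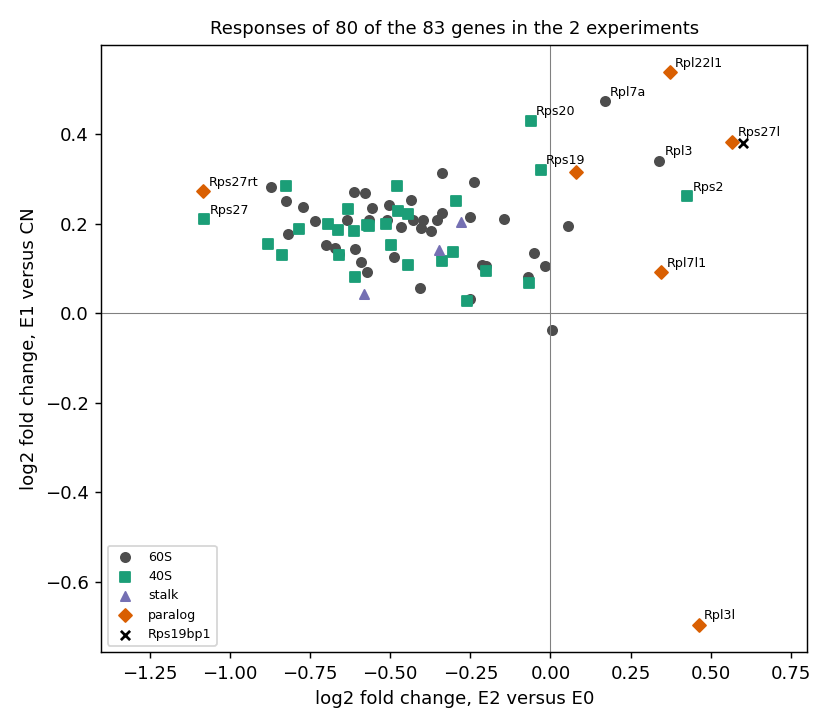
Log2 fold change in E2 versus E0 (horizontal) against that in E1 versus CN (vertical), 1 point per gene for 80 of the 83 genes, with the class of the protein given by symbol and colour. Most points lie left of 0 and above 0, Rps27 and Rps27rt far to the left, and Rpl3, Rps2 and Rpl22l1 lie to the right and above.

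Levels per kilobase of annotated transcript spread widely among the genes. Averaged over all 8 libraries Rps9 was highest, at 444 and 469 CPM per kilobase in E2, 830 and 802 in E0, 1087 and 1015 in E1, and 871 and 1050 in CN. Rplp1 was highest in both E2 libraries (505 and 483) and Rps27rt in both E1 libraries (1091 and 1045), while Rps9 was highest in each E0 and CN library. Rps27rt, Rplp1 and Rps27a were also among the 5 highest, and the values of these 3 overlapped between libraries. Rpl3l, Rps19bp1, Rpl22l1, Rps20 and Rpl7l1 were lowest. Rpl22l1 stood at 23.0 and 20.9 CPM per kilobase in E2, 18.0 and 15.9 in E0, 28.3 and 25.9 in E1, and 18.2 and 19.1 in CN. The place of Rps20 rests on an annotated transcript of 3706 bases, and the place of Rps27rt on reads it shares with Rps27. The median gene stood at 154 CPM per kilobase in E2 and 194 in E0.

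Levels of these genes were not compared between the experiments, because reads fell differently on retrocopies, the processed pseudogenes that copy ribosomal protein mRNAs. A sequence search matched 143 rows to 54 of the 83 genes, at 80% identity or more over at least 50% of the gene's transcript. These rows were pseudogenes by annotation or by name, and a few with a pseudogene name are annotated as protein-coding. They held 5.78 and 6.06 counts per 100 counts of the genes themselves in E2, and 5.22 and 5.53 in E0. In the first experiment they held 0.534 and 0.691 in E1, and 0.674 and 0.718 in CN. Within an experiment the values were close to each other, and between the experiments they did not overlap. For Rps6 the copies held 34.4 and 38.7 counts per 100 in E2, 32.1 and 38.5 in E0, 0.478 and 1.38 in E1, and 0.886 and 1.06 in CN, and 1 of its 2 copies was identical to it over the aligned bases. With the pseudogene counts added to their genes, 62 genes were lower and 6 higher in E2 versus E0, the same counts as without them. The 29 genes without such a copy had a median of -0.50 in E2 versus E0, with 23 lower and 2 higher.

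Other parts of the translation machinery were set beside the ribosomal protein genes. Over all genes tested, 17% were called higher and 18.5% lower in E2 versus E0, and 9.19% and 8.08% in E1 versus CN. Of the 4 genes outside the name rule, 3 fell in E2 versus E0, among them Fau (-0.97) and Rack1 (-0.32), and Rpsa was at -0.13 and not called. Fau, which encodes a ribosomal protein fused to a ubiquitin-like protein, had 136 and 139 CPM in E2, against 288 and 251 CPM in E0. Of 19 other TOP mRNAs, 13 fell and 2 rose in E2 versus E0. This list shares 13 of its 19 genes with the other lists, Fau among them. Of the 6 elongation factor genes, Eef2 (-0.78), Eef1b2 (-0.66) and Eef1a1 (-0.32) fell, while Eif5a (0.94) and Eef1g (0.35) rose. Of 36 initiation factor genes, 16 rose, among them the cap-binding protein gene Eif4e (1.12), and 5 fell, among them Eif3f (-0.92). In E1 versus CN, 2 of the 19 TOP mRNAs rose (Hnrnpa1 at 0.45 and Pabpc1 at 0.34), as did 4 of the 36 initiation factor genes, among them Eif3k (0.45). The other genes of these lists, including all 4 outside the name rule and all 6 elongation factor genes, were not called in E1 versus CN.

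Factors that make ribosomes, and the ribosomal proteins of mitochondria, gave other counts. For scale, 17% of all genes tested were called higher and 18.5% lower in E2 versus E0. Of 16 ribosome biogenesis genes, 4 rose and 12 were not called in E2 versus E0, the 4 including Nop58 (0.59) and Fbl (0.59), both box C/D snoRNP proteins. Of 77 mitochondrial ribosomal protein genes, 21 rose and 4 fell, with a median of 0.29, against the median of -0.47 for the cytosolic genes. The E1 libraries had 1 of the 16 and 5 of the 77 higher than CN, against 9.19% of all genes called higher. The others were not called. The polymerase I factor Rrn3 was the biogenesis gene that rose (0.77), and it also rose in E2 versus E0 (0.30).

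**Figure D5:**
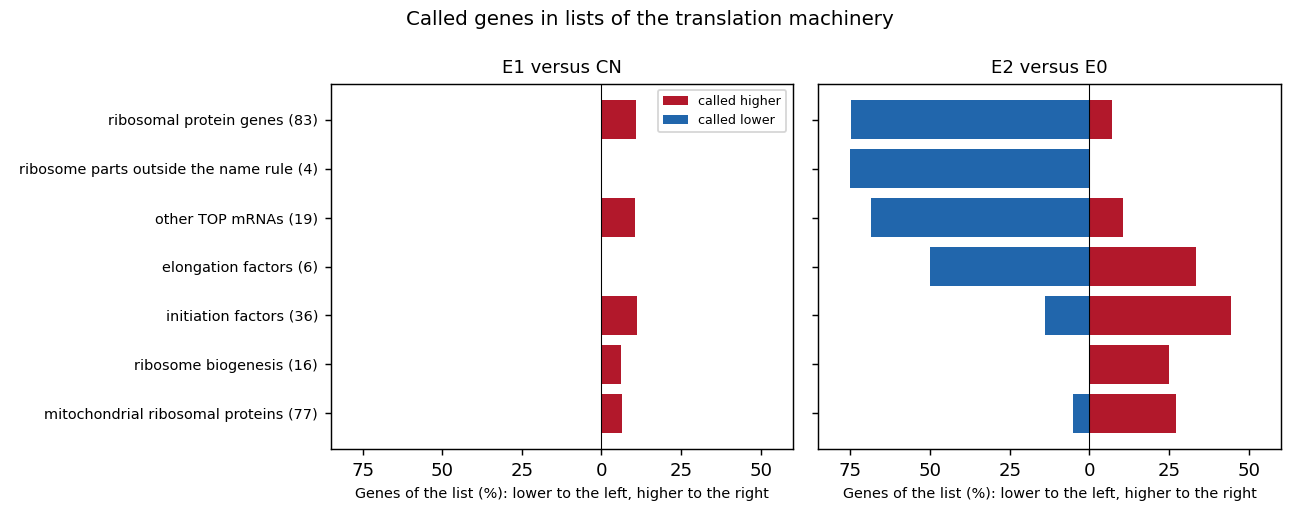
Percentage of the genes of each list called higher (red, to the right) and lower (blue, to the left) in E1 versus CN and E2 versus E0, with the number of genes tested in brackets. In E2 versus E0 the ribosomal protein genes stand at 74.7% lower, and the mitochondrial ribosomal proteins and the biogenesis factors have more genes higher than lower. Of all genes tested, 17% were called higher and 18.5% lower there.

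Among 20 genes of the mTOR pathway and its TOP regulators, Larp1 rose in both comparisons. It had 190 and 200 CPM in E1, against 78.5 and 84.7 CPM in CN (1.26 ± 0.06, edgeR adjusted p = 4e-06), and 87.7 and 85.6 CPM in E2, against 73.6 and 75.2 CPM in E0 (0.22 ± 0.06, edgeR adjusted p = 0.0255). In E2 versus E0, 3 of the 20 rose and 7 fell, the largest fall being in Pdcd4 (-1.66), an inhibitor of the helicase eIF4A. The E1 versus CN comparison had 1 of the 20 higher and 2 lower. Among all genes tested, 17% were called higher and 18.5% lower in E2 versus E0, and 9.19% and 8.08% in E1 versus CN. Of 13 measured genes of p53 and its targets, 7 rose and 3 fell in E2 versus E0, with Cdkn1a at 1.78, and 3 rose and 1 fell in E1 versus CN, with Cdkn1a at -0.35. Of 5 genes linked to the GAIT pathway of Rpl13a, 2 rose in E2 versus E0 (Gapdh at 0.80 and Syncrip at 0.39). In E1 versus CN, 1 of the 5, Dapk1 (1.52), rose.

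Genes listed as markers of eosinophils and of other cells also differed in these comparisons. All genes tested gave 17% higher and 18.5% lower in E2 versus E0, and 9.19% and 8.08% in E1 versus CN. In E2 versus E0, 7 of the 9 eosinophil markers fell and 1, Siglecf (0.28), rose. Of 11 neutrophil markers with a row, 5 fell and 6 were not called, and they summed to 930 and 1323 CPM in E2, against 2773 and 3471 CPM in E0. Of 12 monocyte and macrophage markers, 9 fell and 3 rose. They summed to 3842 and 3699 CPM in E2, against 2965 and 3244 CPM in E0. Adgre1, which rose, made up most of these sums, at a mean of 2824 CPM in E2 and 2015 CPM in E0. Which cells expressed Adgre1 was not tested, so these sums are not a measure of macrophages. Against CN, 6 neutrophil markers fell and 1 rose in E1, summing to 1789 and 1326 CPM in E1, against 3043 and 2656 CPM in CN. In the same comparison 4 of the 12 monocyte and macrophage markers fell and 3 rose. These summed to 7385 and 6840 CPM in E1, against 3348 and 2922 CPM in CN. Ly6c2 alone had a mean of 3999 CPM in E1 and 99.0 CPM in CN, while Fn1 (-5.92) and Apoe (-4.24) were among the 4 that fell. Siglecf was the eosinophil marker that fell in E1 versus CN (-0.38), and 1 basophil and mast cell marker rose. In E2 versus E0, 1 T cell marker rose and 1 fell of 4, 2 B cell markers rose and 1 fell of 6, and 1 of 6 NK cell, 1 of 2 platelet and 2 of 6 basophil and mast cell markers rose. No other marker of these lists, nor any of 5 erythroid markers, was called. T cell markers summed to 4.12 to 10.7 CPM and NK cell markers to 9.30 to 47.1 CPM over the 8 libraries, erythroid markers to 0.913 to 39.6 CPM, and B cell markers, with a B220 depletion, to 131 to 271 CPM. Basophil and mast cell markers summed to 89.4 and 67.2 CPM in E2, against 57.5 and 46.4 CPM in E0. The platelet markers Pf4, Ppbp and Gp9 have no row. The 2 platelet markers with a row summed to 257 and 250 CPM in E2, against 204 and 210 CPM in E0. Itga2b made up nearly all of this, at a mean of 248 CPM in E2 and 203 CPM in E0. No marker with a row was at 0 in all libraries. The part of other cells in the levels of the ribosomal protein genes was not tested.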

How the data were processed

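Stranded mRNA libraries were sequenced from cultured mouse eosinophils, 8 in all and 2 in each of 4 groups taken from the labels. The deposited table holds raw counts per Ensembl gene, with no normalization. It has no mitochondrially encoded gene, and the smallest total of a gene is 59 counts. Shares of counts given here are therefore shares of this table, not of all reads. Per the submitters' processing notes the authors used STAR, featureCounts and mm10, and the sources used here do not give versions, annotation, strand setting or the handling of reads with several positions. One row has no gene name, holds the sum of the other rows (100% of their counts) and was left out. Symbols matched 15730 of 15917 IDs, with 1.2% of all counts in the 187 others. Gene positions follow GENCODE M21 (mm10), and start windows from RefSeq on GRCm38.p6.

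Counts were fitted in R 4.3.3 with edgeR 4.0.16 by a two-sided quasi-likelihood F test after filterByExpr and TMM scaling. Each group had its own mean, all 8 libraries shared the spread, and 4 degrees of freedom remained. Of 15917 genes 4 were filtered out, none of them among the 83, so 15913 were tested. Calls were made where the Benjamini-Hochberg adjusted p over all tested genes was under 0.05. Log2 fold changes carry their SE. Comparisons were E1 versus CN, E2 versus E0, and the difference of the 2. The fit was checked on simulated data. Pseudogene copies and paralogs were found with blastn. A count of 3 in a library corresponds to 0.0316 to 0.0493 CPM, and such floors cover counting error only, since PCR reads without molecular identifiers are not independent molecules. The chi-square of replicate counts per gene was 40.2 to 92.5, so each library counted as its own sample.

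Named genes were, per comparison, up to 15 called each way by size with no overlap between groups and 10 CPM or more in the higher group; the 5 highest and 5 lowest per kilobase; and a set of stalk, extra-ribosomal and paralog genes whatever their result. From other lists up to 3 called genes each way were taken. Fau, Rpsa, Rack1, Cdkn1a and others beyond these limits were named by their list. Some genes are counted in the totals and not reported by name here. The genes, lists and tests were chosen with earlier results of these data known. Alternatives were DESeq2's size factors (RLE), library totals, no filter, protein-coding genes only, DESeq2 1.42.0, limma-voom (limma 3.58.1), a replicate block, the libraries of the contrast alone, and each library left out. Pseudogene counts summed into their genes were an alternative chosen after seeing the data.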

Additional observations from a re-analysis of the deposited data

Results flagged for a closer look

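The response of the ribosomal protein genes differed between the comparisons by a direct test, E2 minus E0 less E1 minus CN, in edgeR's quasi-likelihood model with Benjamini-Hochberg adjustment over all genes tested. Of the 83 genes, 65 were lower and 1 was higher in this difference. Among the genes named by rule, the small-subunit genes with a lower value were Rps27rt (-1.36), Rps27 (-1.29), Rps23 (-1.11), Rps27a (-1.03), Rps16 (-0.97), Rps9 (-0.97), Rps14 (-0.89), Rps4x (-0.80), Rps6 (-0.70), Rps25 (-0.55), Rps20 (-0.49) and Rps19 (-0.35). The large-subunit genes were Rpl37a (-1.15), Rpl17 (-1.08), Rpl27a (-1.01), Rpl30 (-0.99), Rpl37 (-0.94), Rpl13a (-0.88), Rpl5 (-0.85), Rpl7 (-0.82), Rpl24 (-0.65), Rpl38 (-0.64), Rpl11 (-0.60), Rpl22 (-0.56), Rpl10a (-0.53) and Rpl39 (-0.46). The stalk genes were Rplp0 (-0.62), Rplp1 (-0.49) and Rplp2 (-0.48). The muscle paralog Rpl3l was higher (1.16). With 1 library left out, Rps19 and Rplp1 each lost the call in 6 of the 8 fits, Rpl3l in 5 and Rplp2 in 3.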

How the results depend on the processing

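In E2 versus E0 the number of ribosomal protein genes called lower was 45 to 63 with 1 library left out and 61 to 65 under all other settings. The number called higher was 6 or 7 under those settings and 1 to 6 with 1 library left out, the lowest without E0 replicate 1 (1) and E2 replicate 2 (2). In E1 versus CN the number called higher was 2 to 12 with 1 library left out, 4 with library totals alone or with the libraries of the comparison alone, and 20 with DESeq2. Rpl3l was the 1 gene called lower there with library totals alone, with protein-coding genes only and with pseudogene counts summed into their genes. In the difference of responses, 56 to 66 genes were lower with 1 library left out and 61 to 70 otherwise, and 0 or 1 were higher with 1 library left out. The labels number the replicates in each group without saying that a number marks the same animal or day, but by Xist and the Y-linked transcripts it went with sex in all 4 groups. Replicate deviations correlated across genes between E1 and CN (r = 0.778) and between E2 and E0 (r = 0.767), and at 0.678 and 0.612 without the X and Y genes. With the replicate number as a block within each experiment, 44 genes were higher and 1 lower in E1 versus CN at a median of 0.20, as without it, and 2 were higher in the difference of responses. Values near 0 that changed sign were not called under either setting. With library totals alone in E1 versus CN these were Rpl10 (-0.0591), Rpl39 (-0.0355), Rpl7l1 (-0.0014) and Rplp0 (-0.0481). With 1 library left out in the same comparison Rpl10 (-0.0541 to 0.1406) and Rplp0 (-0.0318 to 0.1384) spanned 0, as did Rpl36al in E2 versus E0 (-0.0291 to 0.1997) and Rpl3 in the difference of responses (-0.0815 to 0.0833). Rpl3 also did so with library totals alone (0.0767) and with pseudogene counts summed (0.0015). Of the 33 named genes called in E2 versus E0, 1 lost its call under another setting and 12 did with 1 library left out, and no called gene changed sign. The share of counts averaged 1.13% in E2 and 1.64% in E0 when taken over protein-coding counts. The cause of these shifts was not tested.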
